A study of Homo sapiens with 9 samples.

Results

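Chromosome 18 held 3003 of the 141489 islands that 8 ChIP-seq libraries placed on the genome of BEAS-2B cells, and these 3003 islands were taken by their chromosome name alone. The chromosome was chosen for its H3R8me2a, which had the lowest ratio of KO to WT covered length among the 23 chromosomes compared. That ratio is therefore a description of the choice, and no test was made of it. BEAS-2B cells descend from normal bronchial epithelium of the human airway and were made immortal by a viral construct. The KO cells were colonies grown after CRISPR-Cas9 editing of mdig and Blasticidin selection, and the WT cells were colonies from the same procedure that were not knocked out. How many colonies entered a library is not given in the labels used here. Each genotype gave 1 library for each of 4 histone marks, H3K4me3, H3K27me3, H3K9me3 and H3R8me2a, and WT also gave 1 input library, which has no island set here. With 1 library per mark and genotype there was no replicate, so every difference below is a comparison of 2 libraries without a test.

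H3K4me3 is found at the promoters of active and poised genes. H3K27me3 is laid down by the Polycomb complex over silent developmental genes, and H3K9me3 marks heterochromatin. H3R8me2a is the asymmetric dimethylation of an arginine of the same histone tail. Mdig, encoded by RIOX2 on another chromosome, is a protein with a JmjC domain, the fold that many histone demethylases share. An island is a run of neighbouring windows enriched in reads, so the covered length of a mark counts how far its enriched chromatin reaches and not how strong it is.

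Promoter sequence is shown for 4 genes of the chromosome, each as the 250 bases before and the 50 bases after the transcription start, read from GRCh37, the genome of the islands, with CpG dinucleotides in capitals. APCDD1 (chr18:10454382-10454681, plus strand), CIDEA (chr18:12254110-12254409, plus strand), DCC (chr18:49866317-49866616, plus strand) and DTNA (chr18:32073005-32073304, plus strand) each had H3K4me3 near the start, within 2 kb, in WT but not in KO.
APCDD1: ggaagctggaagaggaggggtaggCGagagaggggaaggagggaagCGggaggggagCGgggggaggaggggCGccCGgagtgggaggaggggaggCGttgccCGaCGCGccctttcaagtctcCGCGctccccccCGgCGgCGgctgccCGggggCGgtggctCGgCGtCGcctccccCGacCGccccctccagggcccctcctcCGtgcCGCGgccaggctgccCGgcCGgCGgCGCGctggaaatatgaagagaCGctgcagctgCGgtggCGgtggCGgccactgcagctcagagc
CIDEA: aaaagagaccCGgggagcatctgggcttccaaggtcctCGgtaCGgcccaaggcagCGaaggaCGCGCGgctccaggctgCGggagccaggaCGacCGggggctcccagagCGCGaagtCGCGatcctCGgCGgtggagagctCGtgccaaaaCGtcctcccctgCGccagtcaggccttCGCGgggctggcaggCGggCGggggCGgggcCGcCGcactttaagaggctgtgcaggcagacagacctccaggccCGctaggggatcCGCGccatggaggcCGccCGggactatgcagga
DCC: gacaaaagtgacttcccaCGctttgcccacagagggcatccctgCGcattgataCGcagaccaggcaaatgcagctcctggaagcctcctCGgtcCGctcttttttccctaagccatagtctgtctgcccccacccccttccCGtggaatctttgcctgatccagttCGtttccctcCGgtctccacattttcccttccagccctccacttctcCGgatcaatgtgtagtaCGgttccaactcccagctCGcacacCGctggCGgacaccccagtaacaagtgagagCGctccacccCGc
DTNA: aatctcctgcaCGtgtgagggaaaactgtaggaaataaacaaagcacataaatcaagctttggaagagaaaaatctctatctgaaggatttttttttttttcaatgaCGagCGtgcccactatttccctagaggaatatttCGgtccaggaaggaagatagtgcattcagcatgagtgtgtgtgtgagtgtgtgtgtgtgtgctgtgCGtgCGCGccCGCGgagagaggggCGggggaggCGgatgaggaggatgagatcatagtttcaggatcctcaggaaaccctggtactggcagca
These promoters hold 33, 31, 15 and 11 CpG dinucleotides in the order printed, and their GC content is 76%, 70.7%, 58% and 48%. The median over the 266 protein-coding promoters of the chromosome is 24 CpG dinucleotides. Promoters with an H3K4me3 island in both libraries have a median of 29 over 173 genes, and those with an island in neither have a median of 7 over 87 genes. The 6 promoters with H3K4me3 in WT alone, of which the 4 printed have the most H3K4me3 bases, have a median of 32 CpG dinucleotides and a median GC content of 73.3%. Those printed reach from a CpG-dense start, as in APCDD1, to one with few, as in DTNA.

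Only the position of an island is given, without its height or reads, so the depth behind it is unknown. None of the 3003 islands overlapped another of its own library, and none lay in the centromere gap, from 15410899 to 18510898, that parts the short arm, 18p, from the long arm, 18q. An H3K4me3 island stood at the promoter of 5 of 7 bronchial epithelial marker genes in both libraries, including KRT8, KRT18, EPCAM and CDH1, while KRT5 and KRT19 had none. The mesenchymal markers had one at 4 of 4 genes in both libraries, and among 4 leukocyte markers 1 did, CD14. Their part in the differences between WT and KO was not tested.

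Chromosome 18 had 309 H3K4me3 islands in WT and 272 in KO, 784 and 572 of H3K27me3, 324 and 554 of H3K9me3, and 138 and 50 of H3R8me2a. The H3K4me3 islands covered 1.30 Mb in WT against 1.21 Mb in KO, a KO/WT ratio of 0.929 against 1.15 over the genome. H3K27me3 covered 5.63 Mb and 6.12 Mb, a ratio of 1.09 against 1.33. Those of H3K9me3 covered 1.32 Mb and 3.08 Mb, a ratio of 2.34 against 3.69. H3R8me2a covered 0.982 Mb in WT against 0.373 Mb in KO, a ratio of 0.380 against 1.61. So KO had more H3K9me3 and less H3R8me2a on this chromosome, and each mark stood lower against WT than it did over the genome. When each pair of libraries is brought to an equal total of covered bases, called scaling here, which divides each ratio by that of the genome, the ratios of H3K27me3 and H3K9me3 turn to 0.815 and 0.633. In the order from the lowest ratio of 23 chromosomes, chromosome 18 was in place 1 for H3R8me2a and in place 2 for the other marks. Chromosomes 10 and 22 followed it for H3R8me2a, at 0.460 and 0.497.

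The low ratios of the chromosome came from its long arm. 18p, with 66 protein-coding genes, had more covered length in KO for all 4 marks, though with that scaling H3R8me2a there turns to 0.918. 18q, with 200 protein-coding genes, had less in KO for 3 of them, and with the scaling for H3K9me3 too (0.365), and its ratio was the lowest of 41 chromosome arms for each of the 4. The arms of chromosome 18 thus differed in direction for H3K4me3 and H3K27me3 within the same pair of libraries. Without scaling they also did so for H3R8me2a, but nothing is read from this, since that mark chose the chromosome. With scaling H3R8me2a was lower in KO on both arms, at 0.918 on 18p and 0.120 on 18q. H3K9me3 then differed in direction, at 1.26 on 18p and 0.365 on 18q.

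On 18p, H3K4me3 covered 400.8 kb in WT against 485 kb in KO (ratio 1.21). H3K27me3 covered 850.4 kb and 1655 kb (1.95), and H3K9me3 393 kb and 1833 kb (4.66). For H3R8me2a the arm had 143 kb in WT against 212 kb in KO (1.48). Counted from the lowest of 41 arms, 18p took places 32, 39, 30 and 13 for H3K4me3, H3K27me3, H3K9me3 and H3R8me2a, so both repressive marks were among the arms with the higher ratios.

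On 18q, H3K4me3 covered 903 kb in WT against 726 kb in KO (ratio 0.804), where the next arm, 22q, had a ratio of 0.891. H3K27me3 covered 4776 kb and 4461 kb (0.934), where 22q had 1.03. H3K9me3 covered 923 kb and 1245 kb (1.35), where the next arm, 5p, had 1.52. For H3R8me2a the arm had 838 kb in WT against 161 kb in KO (0.193), where 5p had 0.313. Only 1 of the 41 arms, 18q, had a ratio below 1 for 3 marks, while 32 arms had none below 1. One of these marks, H3R8me2a, chose the chromosome. Without it, 18q was below 1 for H3K4me3 and H3K27me3, and 22q, 10q, 5p and 15q were below 1 for H3K4me3 alone. In all, 8 arms lay below the genome ratio for all 4 marks. The input came from WT alone and its islands were not used here, so the DNA content of the arms in WT and KO was not tested.

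**Figure D1:**
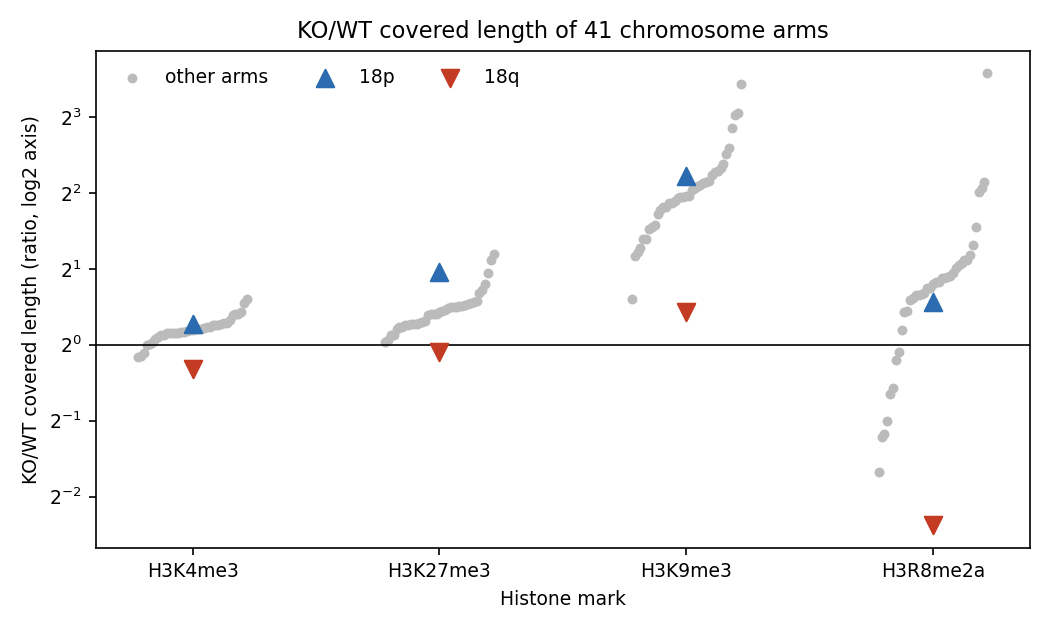
KO/WT covered length (ratio, log2 axis) of the 41 chromosome arms for each mark, 1 point per arm from 1 WT and 1 KO library. The red triangles of 18q are the lowest point in each column, from 0.193 for H3R8me2a to 1.35 for H3K9me3, and the blue triangles of 18p lie above 1 in all columns, without scaling (0.918 for H3R8me2a with it).

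Along the chromosome the difference between the arms set in near the centromere. In bins of 5 Mb, the first 3, all on 18p, had more of every mark in KO. H3K9me3 in these bins covered 59.4, 109 and 213 kb in WT and 279, 490.4 and 1047 kb in KO, with ratios of 4.70, 4.51 and 4.91. H3K27me3 had 182, 341 and 327 kb in WT and 401, 458 and 795 kb in KO. The bin from 10 to 15 Mb held the most of both repressive marks in KO on this arm.

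The bin from 15 to 20 Mb, which holds the centromere gap, had 71 kb of H3K4me3 in KO and 68.2 kb in WT, and is the last bin from the short arm end with a ratio above 1 for that mark. Each of the 12 bins from 20 Mb to the end had less H3K4me3 in KO, with ratios from 0.673 to 0.970. H3R8me2a was lower in KO in all 13 bins from 15 Mb on, and 6 of these bins had no H3R8me2a island bases in KO at all, against 1.8 to 37.6 kb in WT. The greatest H3R8me2a length lay in the bin from 20 to 25 Mb, with 359.6 kb in WT against 95.8 kb in KO.

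H3K27me3 and H3K9me3 did not keep 1 direction along 18q. From 21 to 70 Mb, H3K27me3 covered 3212 kb in WT against 2533 kb in KO (ratio 0.789), and H3K9me3 351 kb and 310.2 kb (0.883). From 70 Mb to the end, H3K27me3 covered 1561 kb and 1928 kb (1.23), and H3K9me3 428 kb and 645 kb (1.51). The subtelomeric end of 18q thus had more of both repressive marks in KO, as 18p did, in the covered length without scaling. With scaling, 18.8% of the 16 bins of 5 Mb had a ratio above 1 for H3K27me3 and the same share for H3K9me3, which were the 3 bins of 18p, so the direction at the end of 18q turns. H3K4me3 and H3R8me2a had less there in KO, at 146 and 114 kb for H3K4me3 and at 78 and 2 kb for H3R8me2a. The limits of 21 and 70 Mb were set after the bins had been seen.

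**Figure D2:**
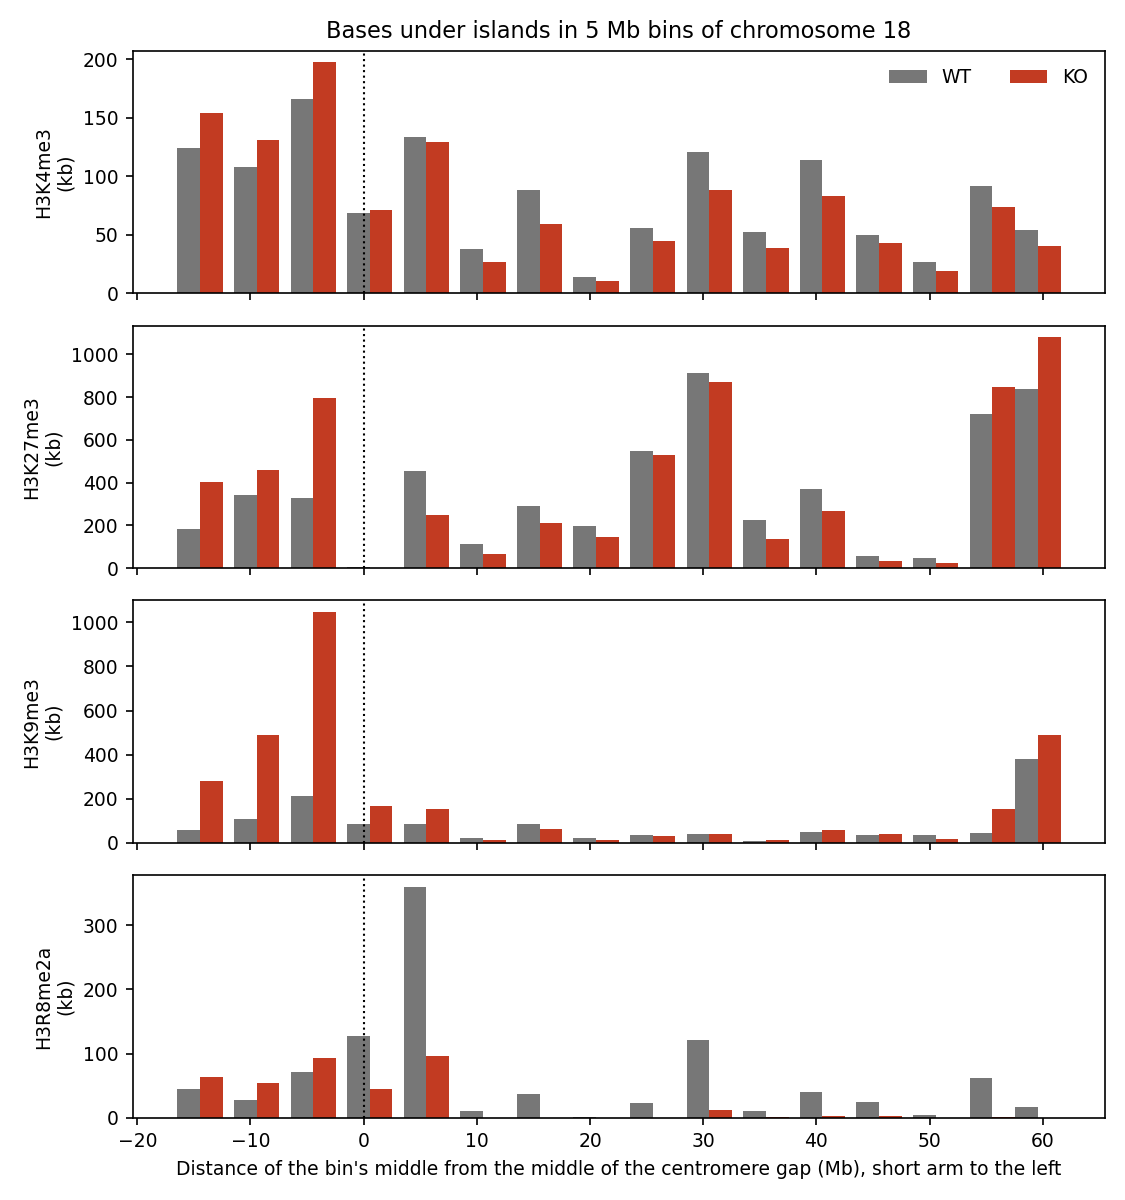
Bases under islands (kb) in 5 Mb bins of chromosome 18, with the short arm to the left of the dotted line at the middle of the centromere gap, gray for the WT library and red for KO. The last bin is shorter than 5 Mb. H3K4me3 in KO exceeds WT in the 4 bins to the left alone, and H3R8me2a is lower in KO in the 13 bins from the gap to the right end.

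Bins of 1 Mb gave the same picture in counts. On 18p, KO had more H3K4me3 in 12 of 16 bins and less in 2, more H3K9me3 in 16, more H3K27me3 in 12 and less in 1, and more H3R8me2a in 10 and less in 2. On 18q, KO had less H3K4me3 in 39 of 63 bins and more in 8, less H3K27me3 in 39 and more in 10, and less H3R8me2a in 32 and more in 1. H3K9me3 on 18q was mixed, with more in KO in 27 bins and less in 21.

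Islands that stood in both libraries were counted next, with an overlap of at least 1 base. The 16 H3R8me2a islands of KO on 18q all overlapped a WT island, whereas 17 of the 111 WT islands there overlapped a KO island. These counts describe the mark by which the chromosome was chosen. On 18p the counts were 16 of 27 WT islands and 17 of 34 KO islands. No H3R8me2a island of KO on 18q therefore stood at a place without one in WT, and 17 on 18p did.

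H3K4me3 had the same form on 18q with smaller shares. There 49 of 220 WT islands had no partner in KO, and 3 of 177 KO islands had none in WT. On 18p 6 of 89 WT islands and 12 of 95 KO islands had none. For H3K9me3, 230 of the 312 KO islands on 18p, over 1212 kb, had no WT partner, and 92 of 242 did not on 18q. H3K27me3 on 18q went from 673 islands in WT with a mean of 7.10 kb to 439 in KO with a mean of 10.2 kb, so the islands were fewer and longer in KO. Of the WT ones 237 had no partner in KO.

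Islands that overlapped exactly 1 island of the other library also differed in length by arm. For H3K4me3 the KO island was longer in 53 of 81 pairs on 18p and shorter in 20, while on 18q it was longer in 48 of 168 pairs and shorter in 108. The median of the length ratio was 1.14 on 18p and 0.889 on 18q. For H3K27me3 the KO island was longer in 40 of 49 pairs on 18p and shorter in 9, and on 18q it was longer in 131 of 242 pairs and shorter in 96, with median length ratios of 1.48 and 1.04. H3K9me3 islands were longer in KO in 63 of 73 pairs and in 78 of 117. H3R8me2a islands were longer in KO in 11 of 15 pairs on 18p and shorter in 11 of 15 on 18q. Among paired islands the arms thus differed in direction for H3K4me3. They also did so for H3R8me2a, from which nothing is read, since that mark chose the chromosome. Those of H3K27me3 and H3K9me3 were more often longer in KO on both arms taken whole. Within 18q, the H3K27me3 island of KO was longer in 58 of 136 pairs from 21 to 70 Mb and shorter in 73. From 70 Mb to the end it was longer in 73 of 106 pairs and shorter in 23.

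**Figure D3:**
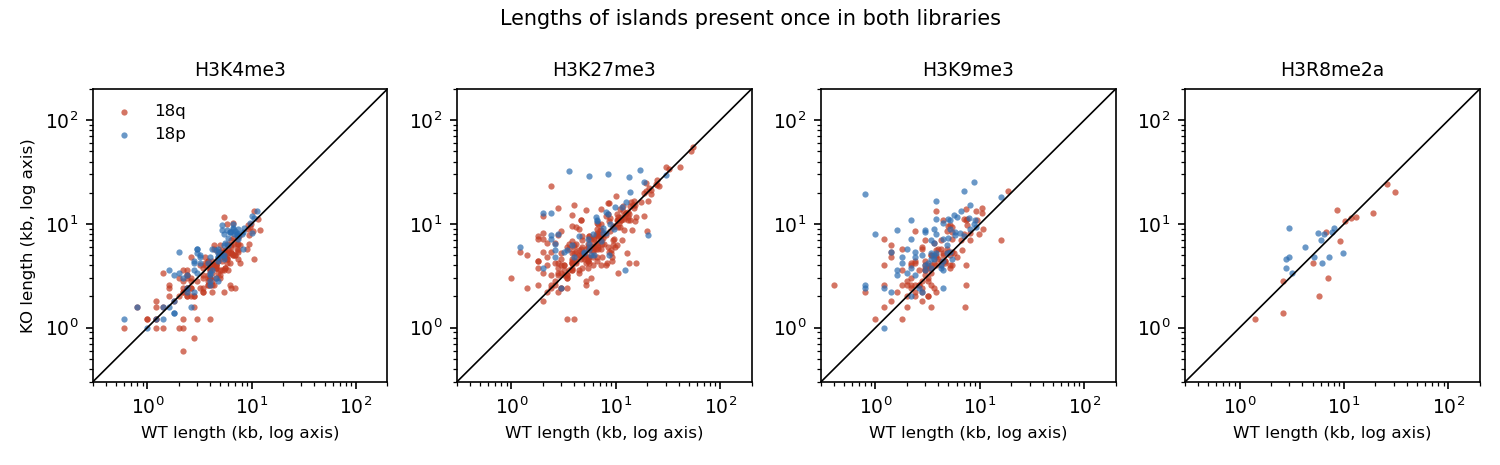
Length in KO against length in WT (kb, log axes) of islands that overlap exactly 1 island of the other library, 1 point per pair, blue for 18p and red for 18q, with the line of equal length. H3K4me3 points of 18p lie mostly above the line (53 of 81) and those of 18q mostly below it (108 of 168).

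Most of the H3R8me2a covered length of 18q in WT lay in 1 stretch of 18q11. This stretch runs from 19745801 to 21212000 (GRCh37), from GATA6, an endodermal transcription factor, to ANKRD29, and is 1466 kb long. It held 20 H3R8me2a islands over 436 kb in WT, which is 52.0% of the mark on 18q, and 6 islands over 106 kb in KO, which is 65.9%. The KO/WT ratio of the mark was 0.244 in the stretch and 0.193 on 18q, which contains it. The edges of the stretch are the first and last base of its WT islands of H3R8me2a, the mark that chose the chromosome. Nothing is therefore read from these ratios of H3R8me2a. H3K4me3 in the same stretch covered 96.4 kb in WT against 111 kb in KO, and H3K9me3 88.8 kb and 161 kb. H3K27me3 covered 3.6 kb in WT and was listed at 0 in KO. The KO/WT ratios were 0.244 for H3R8me2a, 1.15 for H3K4me3 and 1.82 for H3K9me3, and with scaling they became 0.151, 0.998 and 0.491, so that H3K4me3 was level and the direction of H3K9me3 turned. Without scaling, 18q from 21 Mb to its end, which includes the last part of the stretch, had 802 kb of H3K4me3 in WT against 613 kb in KO.

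The longest H3R8me2a island of the chromosome lay over the end of GATA6 and beyond it, from 19767801 to 19825800, and had no KO island under its 58 kb. A second island at the start of GATA6 was kept, with 10.2 kb in WT against 10.6 kb in KO. TMEM241 (ENSG00000134490.14, minus strand, 20777108 to 21017925), a transmembrane protein gene and the one with the most H3R8me2a covered length missing in KO, had 141 kb of H3R8me2a in WT and 24.2 kb in KO over its body and 5 kb upstream. CABLES1, a regulator of cyclin-dependent kinases that overlaps it, had 94.0 kb and 43.2 kb, part of it the same islands. NPC1, the lysosomal cholesterol transporter, had 34.3 kb and 13.9 kb. ANKRD29, an ankyrin repeat gene, had 24.5 kb in WT but none in KO, whereas RIOK3, a kinase gene between TMEM241 and NPC1, kept 12.8 of 16.2 kb. In the list of 10 genes around TMEM241, which includes TMEM241 itself, 6 met the rule for loss of H3R8me2a given in the next paragraph. None met that for its gain. The shares were 8.05% and 20% of all protein-coding genes, and 34.5% and 0% of those of 18q. Nothing is read from this count, since the mark chose the chromosome and the list was built around the gene that differs most in it. Without scaling, TMEM241 and CABLES1 met the rule for gain of H3K9me3, with 19.4 and 49.2 kb for TMEM241, a ratio below the 3.69 of the genome.

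**Figure D4:**
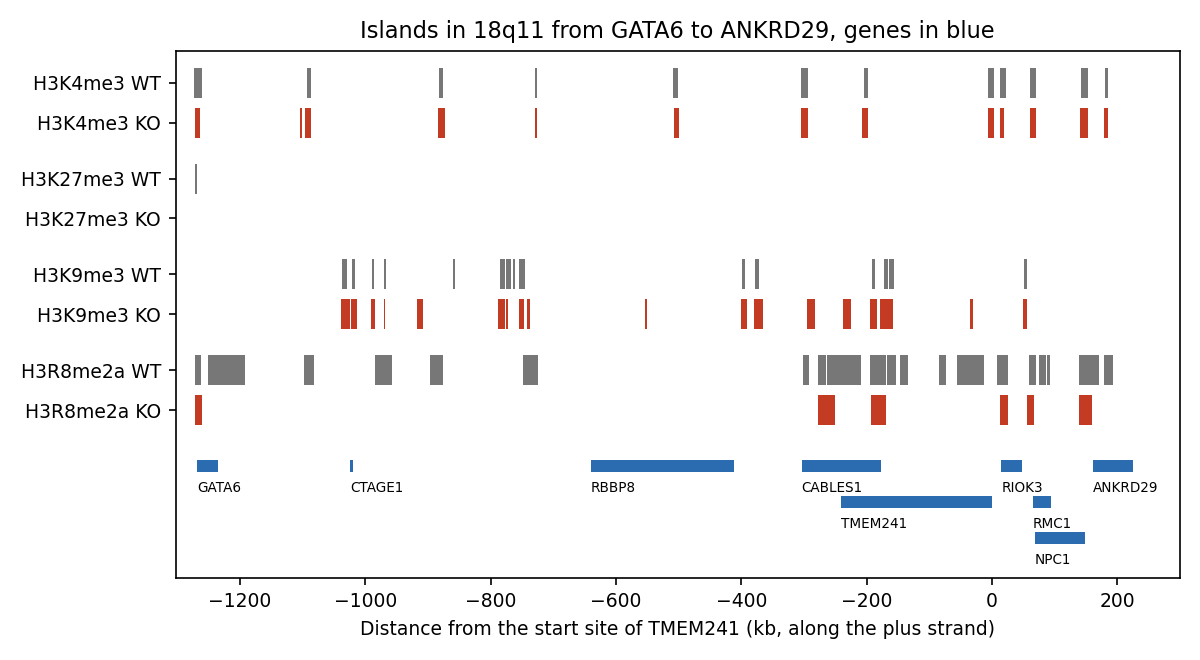
Islands of the 8 libraries in the stretch of 18q11 from GATA6 to ANKRD29, as bars along the distance from the start of TMEM241 (kb), gray for WT and red for KO, with protein-coding genes in blue. The 20 WT islands of H3R8me2a stand above 6 of KO, while the H3K4me3 islands number 12 in WT and 13 in KO.

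Genes were then compared by the bases under islands over the gene body and 5 kb upstream, in the 266 protein-coding genes of the chromosome. Gain means at least 2 times the WT bases in KO and at least 1 kb more, and loss is the opposite. H3R8me2a had 15 gains and 78 losses, beside 20% gains and 8.05% losses among all 20098 protein-coding genes, and nothing is read from these since the chromosome was chosen by that mark. H3K4me3 had 0 gains and 14 losses, beside 4.1% and 2.01%. H3K27me3 had 12 gains and 19 losses, beside 6.5% and 3.29%. For H3K9me3 there were 53 gains and 14 losses, beside 27.6% and 0.876%. With scaling the split became 7 gains and 23 losses for H3K27me3 and 26 gains and 54 losses for H3K9me3, so that for H3K9me3 losses outnumbered gains.

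The calls were also counted by arm, to be set beside the shares over all genes just given. 18p had 15 H3R8me2a gains (22.7%) and 9 losses (13.6%) in its 66 genes. 18q had 0 gains and 69 losses (34.5%) in its 200. Nothing is read from these H3R8me2a counts, for the same reason. H3K9me3 was gained by 33 genes of 18p (50%) and 20 of 18q (10%), and lost by 2 (3.03%) and 12 (6%). H3K27me3 was gained by 8 genes of 18p (12.1%) and lost by 3 (4.55%), and on 18q gained by 4 (2%) and lost by 16 (8%). H3K4me3 was gained by 0 genes on both arms. It was lost by 1 gene of 18p, APCDD1 (1.52%), and 13 of 18q (6.5%). Besides GNAL, the genes of 18p that lost H3K27me3 were TUBB8B and ARHGAP28, and those of 18q that gained it were CD226, SMIM21, ATP9B and PARD6G, all named after their values were seen. A gain of at least 1 mark was seen in 44 of 66 genes on 18p and 24 of 200 on 18q, beside 46.5% of all protein-coding genes, and a loss in 15 and 91, beside 13.5%. Without H3R8me2a, the mark that chose the chromosome, a gain was seen in 37 genes of 18p (56.1%) and 24 of 18q (12%), beside 33.9%, and a loss in 6 (9.09%) and 37 (18.5%), beside 5.96%. In 11 genes of 18p at least 2 of the 4 marks were gained and in none of 18q, beside 10.7%, while 19 genes of 18q and none of 18p lost at least 2, beside 0.741%. Without H3R8me2a, 4 genes of 18p gained at least 2 marks, COLEC12, DLGAP1, LDLRAD4 and MC5R, beside 4.2% of all genes. On 18q, 4 genes lost at least 2 of those marks, DTNA, RNF165, DCC and TCF4, beside 0.209%.

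**Figure D5:**
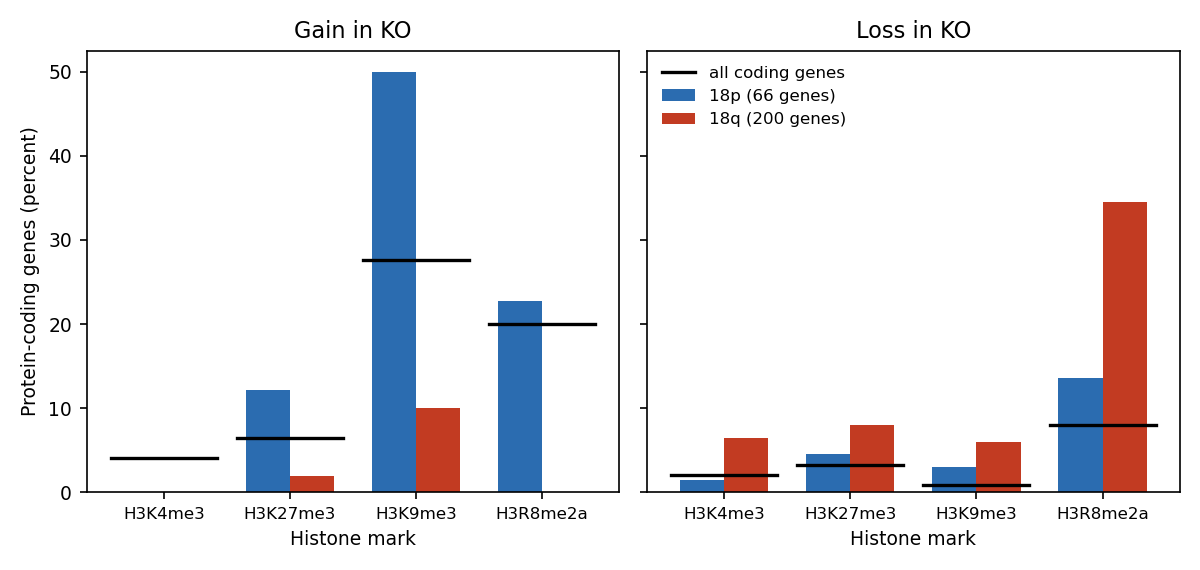
Percent of the protein-coding genes of 18p (blue, 66 genes) and 18q (red, 200 genes) with gain or loss of each mark in KO, with a black line for the percent among all 20098 protein-coding genes. 18q has no bar for gain of H3K4me3 or H3R8me2a and stands above the line for loss of all 4 marks, and the bar for gain of H3K9me3 on 18p reaches 50%.

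By covered bases without scaling, the greatest gains of the repressive marks were on 18p. LDLRAD4 (13217497 to 13652754), which restrains TGF-beta signalling, had 33 kb of H3K9me3 in WT against 271 kb in KO. Its H3K27me3 covered 122 kb and 299.7 kb. COLEC12 (316737 to 500722), a scavenger receptor of the collectin family, had 2.2 kb and 63.5 kb of H3K9me3. PIEZO2 (10666480 to 11149568), a mechanosensitive ion channel, had 21.6 kb and 69 kb. PTPRM, a receptor tyrosine phosphatase of cell contacts, had 22.2 kb and 69.5 kb. Over each of these genes H3K9me3 covered more than 3 times as many bases in KO, beside ratios of 3.69 over the genome and 4.66 over 18p. PIEZO2 and PTPRM lay below both ratios, so with scaling they had fewer bases in KO than in WT. Together with DLGAP1 these genes are 184 to 959 kb long.

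DLGAP1, a scaffold of the postsynaptic density, had more of all 4 marks in KO. Its H3K9me3 was 11 kb in WT against 53.4 kb in KO, its H3K27me3 23.6 and 123 kb, its H3R8me2a 8 and 20.6 kb and its H3K4me3 22.8 and 32.4 kb. It was the 1 gene of the chromosome with 3 gains. MC2R, the adrenocorticotropin receptor, had 5.11 kb of H3K27me3 in WT and 27.3 kb in KO, and CLUL1, a clusterin-like gene of the retina, had 16.8 and 35.4 kb. COLEC12 also had more H3K27me3, at 10.1 and 36.6 kb. H3R8me2a stood in KO alone over LPIN2, a phosphatidate phosphatase, and EMILIN2, an extracellular matrix protein, which share an island of 10.8 kb, and over VAPA, an endoplasmic reticulum anchor, with 8.8 kb. RAB31, a small GTPase of vesicle transport, had 3.2 kb in WT against 13.2 kb in KO.

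Losses lay mostly on 18q. CTIF (46065402 to 46389588), a translation initiation factor bound to the nuclear cap-binding complex, had 51.2 kb of H3R8me2a in WT but none in KO, and 10.6 and 4.6 kb of H3K4me3. MBP (74690783 to 74845639), the gene of myelin basic protein, had 26.6 kb of H3R8me2a in WT but none in KO, and 17.2 and 7.4 kb of H3K4me3. ATP8B1, a phospholipid flippase, had 14.8 and 5.8 kb of H3K4me3, MAPRE2, a microtubule end-binding protein, 13.6 and 6.6 kb, and TCF4, a basic helix-loop-helix factor, 14 and 7 kb. All 5 genes kept H3K4me3 in KO, between 4.6 and 7.4 kb.

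H3K27me3 was lost over ZNF521, a zinc finger factor of progenitor cells, with 53.2 kb in WT against 21.8 kb in KO. On 18p, GNAL, a G protein subunit, had 28 kb in WT but none in KO. PSMA8, a proteasome subunit of the testis, had 22.2 kb and none, CHST9, a sulfotransferase, 21.6 and 4 kb, and TCF4 14.6 kb and none. H3K9me3 losses were small by comparison in length. DYM, needed for skeletal growth, had 12.8 and 6.2 kb, GALNT1, an enzyme of O-glycosylation, 5.6 and 2 kb, and BCL2, the apoptosis inhibitor, SMCHD1, a silencer of the inactive X chromosome, and MOCOS, a molybdenum cofactor sulfurase, had 4.6, 4 and 3.2 kb in WT but none in KO.

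The gene groups that follow were small, and their calls stand beside the shares over all protein-coding genes given above and those of the arms, 50% H3K9me3 gain on 18p and 34.5% H3R8me2a loss on 18q. Among the 7 desmosomal cadherins of 18q12, the adhesion proteins of epithelial junctions, H3K9me3 and H3R8me2a had no island in either library, DSG2 had 4 kb of H3K4me3 in both, and DSG4 had 11 kb of H3K27me3 in WT but none in KO, the 1 call of the group. Of the 10 clade B serpins of 18q21, protease inhibitors of epithelia, 8 had no H3K4me3 island, and the 1 call was a loss of H3R8me2a over SERPINB8, with 2.8 kb in WT but none in KO. Of the 4 classical and type II cadherins, CDH2, the neural cadherin, had 4 kb of H3R8me2a in WT but none in KO, and 9.6 and 5.2 kb of H3K4me3, which was not a call. The median difference was 0 in the desmosomal and serpin groups for every mark, as over all genes.

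The laminin chains lie on different arms. LAMA1, on 18p, had 11.8 kb of H3K9me3 in KO but none in WT. LAMA3, on 18q, an epithelial laminin chain, had 2.4 kb of H3K9me3 and 1.8 kb of H3R8me2a in WT and neither in KO. Among 5 genes of SMAD and TGF-beta signalling, SMAD7, the inhibitory SMAD, had 13 kb of H3R8me2a in WT but none in KO, with 20.4 and 13.6 kb of H3K4me3. LDLRAD4 has been given above. SMAD4 had 1.2 kb of H3K9me3 in WT but none in KO, SMAD2 met no rule, and TGIF1, a corepressor on 18p, had 7.6 and 8.4 kb of H3R8me2a.

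Zinc finger genes had 4 losses and 1 gain of H3R8me2a among the 12 found of 13, beside 8.05% and 20% of all genes and 34.5% losses on 18q. ZNF516 had 7.6 kb in WT but none in KO, ZBTB7C 5.8 kb and none, ZNF407 3.8 kb and none, and ZNF236 1 kb and none, while ZBTB14, on 18p, had none and 1.6 kb. ZNF516 and ZNF236 also gained H3K9me3, from 1.4 to 17 kb and from 0 to 3.8 kb. H3K4me3 was present at all 12 in at least 1 library and none met a rule for it.

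Of 7 developmental transcription factors, all on 18q, 5 had less H3K4me3 in KO and none had more. Among the 200 genes of 18q, 102 had less, 33 had more and 56 had no H3K4me3 island. The loss rule was met by TCF4 and by NFATC1, a calcium-regulated factor of lymphocytes, which had 2.4 kb in WT but none in KO. H3K27me3 was lost by GATA6, 3.6 kb to none, and TCF4. SETBP1 had 3.2 kb of H3K9me3 in KO and none in WT. SALL3, TSHZ1 and ONECUT2 met no rule. Of 6 genes of chromatin and DNA methylation, all but SMCHD1 on 18q, 5 had less H3K4me3 in KO, with no call. MBD1, a methyl-CpG binding protein, had 8.14 and 7.49 kb. ASXL3, a Polycomb-associated gene, lost H3K27me3 from 12.4 to 6 kb.

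The 3 melanocortin receptors lie on both arms. MC2R and MC5R on 18p gained H3K27me3, MC5R from 2.52 to 7.18 kb beside 5.98 kb of H3K9me3 in KO alone. MC4R on 18q had 1 kb of H3K27me3 in WT but none in KO, the smallest difference that the rule takes. H3K27me3 was gained by 12.1% of the genes of 18p and lost by 8% of those of 18q, so no pattern of the arms is read from 3 genes. The list of 9 neuronal genes includes MBP, the gene of myelin basic protein. In this list H3K4me3 was lost by DCC, the netrin receptor, CELF4, an RNA-binding protein, and MBP. CELF4 had 1.8 kb of H3K4me3 and 11.8 kb of H3R8me2a in WT and neither in KO, with an H3K27me3 cover of 272 kb over the gene in both libraries. H3K9me3 was gained by 4 of the 9, beside 27.6% of all genes, which were DLGAP1, CELF4, GALR1 and MBP. CELF4 and MBP thus lost both H3K4me3 and H3R8me2a and gained H3K9me3.

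None of the 10 genes of apoptosis and cell cycle had an H3K27me3 island in either library, and all had H3K4me3. TNFRSF11A, the RANK receptor, lost H3K4me3 from 6.2 to 2.6 kb, PMAIP1 and MALT1 lost H3R8me2a of 4.8 and 1.2 kb, and YES1, a SRC family kinase on 18p, had 5 kb of H3R8me2a in KO and none in WT. H3K9me3 was gained by RBBP8, 3.2 kb, and ESCO1, 4 kb, both from 0. ROCK1, next to the centromere, met no rule, with 11.97 and 11.6 kb of H3R8me2a. The list of 4 epithelial junction and polarity genes includes CABLES1, given above as a regulator of cyclin-dependent kinases. In this list 3 gained H3K9me3, beside 27.6% of all genes and 50% of those of 18p, where 2 of the 3 lie. They were EPB41L3 from 0 to 5 kb, PTPRM and CABLES1, the last from 4.4 to 36.8 kb. MYO5B, a motor of apical transport, kept most of its H3K27me3, at 183 and 166 kb.

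H3K4me3 stood within 2 kb of the start of 179 of the 266 genes in WT and 173 in KO, and all 173 were among those of WT, beside 63.3% of all protein-coding genes with it in both. The 6 genes with it in WT alone, beside 1.55% of all genes, were APCDD1 and CIDEA on 18p and DCC, DTNA, KCNG2 and NFATC1 on 18q, and 0 genes had it in KO alone, beside 1.24%. APCDD1, an inhibitor of WNT signalling, had 3.03 kb of promoter H3K4me3 in WT. Over the gene it had 38.6 kb of H3K27me3 in WT and 40.3 kb in KO, and gained H3K9me3 from 0 to 18.2 kb. CIDEA, a lipid droplet protein, had 2.4 kb of promoter H3K4me3 in WT. Over its body and 5 kb upstream, 6.39 kb of that mark remained in KO beside 8 kb in WT, which was not a call. Its 3.79 kb of H3R8me2a, in KO alone, came from an island across the far end of the gene, away from the promoter. DCC had 2.37 kb of promoter H3K4me3 in WT and DTNA, a dystrobrevin, 1.8 kb, both with H3K27me3 somewhere over the gene in both libraries. KCNG2, a potassium channel subunit, and NFATC1, both near the end of 18q, had 1.8 and 1.55 kb. Without scaling they had more H3K9me3 over the gene in KO, 40.2 and 58 kb for KCNG2 and 67.6 and 96.8 kb for NFATC1. Both ratios were below the 3.69 of the genome, so with scaling both genes had less of it in KO. Thus 5 of the 6 genes had H3K27me3 in both libraries over the gene body and 5 kb upstream, and CIDEA had none. Whether it lay at their promoters was not measured. Of all 266 genes of the chromosome, 175 had no H3K27me3 island.

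Where both libraries had H3K4me3 at the promoter, KO had fewer bases in 55 and more in 26 of 127 genes on 18q, and fewer in 9 and more in 20 of 46 on 18p. At the promoter of TMEM241, H3K4me3 filled the whole window of 4 kb in both libraries, while its H3R8me2a differed by 117 kb. A promoter window filled in both libraries cannot show a difference in island length.

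The places of the other marks under islands found in 1 library alone were read last. The 105 H3R8me2a islands found in WT alone, 665 kb in all, had 35.8% of their bases under H3K4me3 in WT and 33.2% in KO, where the chromosome as a whole had 1.75% and 1.62%. Their H3K27me3 cover was 2.10% and 2.13%, and their H3K9me3 cover was 3.40% in WT and 6.43% in KO, beside 1.76% and 4.12% of the chromosome. H3K4me3 thus covered nearly the same share of these islands in both libraries. Of the 138 H3R8me2a islands in WT, 120 lay over a protein-coding gene, 95 overlapped H3K4me3 and 52 held a transcription start, and of the 50 in KO the counts were 47, 45 and 27.

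The 322 H3K9me3 islands found in KO alone, 1553 kb in all, had 15.7% of their bases under H3K27me3 in WT and 26.3% in KO, beside 7.54% and 8.19% of the chromosome. The 108 H3K27me3 islands found in KO alone had 1.11% of their bases under H3K9me3 in WT and 18.7% in KO, beside 1.76% and 4.12% of the chromosome. None of these bases was under H3K4me3 or H3R8me2a in either library. The islands of the repressive marks found in KO alone thus lay in part under the other repressive mark, more so in KO than in WT.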

How the data were processed

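Chromatin of BEAS-2B cells was immunoprecipitated for 4 histone marks, with 1 library per mark in WT and in KO. The authors aligned the reads to hg19 with BWA, extended them, down-sampled the tags of samples within a comparison group to those of its smallest sample and called islands per library. The submitters' processing notes name SICER 1.1. For BWA, the sources used here give no version. Deposited islands give a chromosome, a start and an end, with no count, score or p-value, so depth is unknown and longer coverage cannot be told apart from more permissive calling. No island set of the input library was used.

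Here covered length is the sum of island lengths per mark and library, and the ratio divides KO by WT. Arms were parted at the centromere gap of GRCh37, the same build as hg19. Chromosomes 1 to 22 and X and the 41 arms that carry islands were compared. Genes came from GENCODE 44 mapped to GRCh37 (20098 protein-coding, 266 on chromosome 18), and overlapping genes share islands. Sequences were read from the GRCh37 genome, for the 4 promoters with the most H3K4me3 bases among those with H3K4me3 in WT alone. Python 3.11.15, numpy 2.4.6, scipy 1.17.1 and matplotlib 3.10.9 were used. Under the alternatives, shares of islands were read against their 95% Wilson interval, which covers counting error only. Named were the 5 largest gains and 5 largest losses per mark among protein-coding genes that met the rule, the members of the gene lists, and genes with promoter H3K4me3 in 1 library alone. The stretch of 18q11 and the genes and islands that the text singles out in it were chosen after their values were seen. The chromosome, its gene lists and the rule were chosen with earlier results of these data known. Alternatives were another factor, gene region, bin size, overlap, island length and gene set, merged islands and libraries scaled to the same total length.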

Additional observations from a re-analysis of the deposited data

How the results depend on the processing

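No result of chromosome 18 has a replicate, so every value compares 2 libraries, and a difference between colonies, a difference between immunoprecipitations and an effect of mdig cannot be told apart. Of 132 alternative values for 35 results, 98 kept their direction and stayed within 1.5 times the reported value or, for shares, within its counting interval, 30 moved further and 4 reversed. The 4 reversals came with libraries scaled to the same total length, which divides each ratio by that of the genome. The KO/WT ratio of chromosome 18 became 0.815 for H3K27me3 and 0.633 for H3K9me3, that of 18q 0.365 for H3K9me3 and that of 18p 0.918 for H3R8me2a. Under the same scaling the ratio of H3K9me3 on 18p was 1.26, that of H3R8me2a 0.236 on the chromosome and 0.120 on 18q, and the percent of 5 Mb bins above 1 was 18.8 for H3K9me3 and 6.25 for H3R8me2a. The scaling gave 7 gains of H3K27me3 and 26 gains and 54 losses of H3K9me3. Within 5 kb of the start there were 6 gains and 12 losses of H3K27me3 and 22 gains and 1 loss of H3K9me3. A factor of 1.5 gave 10 gains and 26 losses of H3K4me3, and the gene body alone and islands of at least 1 kb each gave 1 gain of it. With all gene types, H3K4me3 had 7 gains and 32 losses, H3K27me3 had 69 and 77, H3K9me3 had 180 and 31, and H3R8me2a had 29 and 120. An overlap of at least 50% of the island left 63.6% of WT and 72.2% of KO H3K27me3 islands and 32.9% of KO H3K9me3 islands shared. Promoters narrowed to 1 kb around the start, and islands of at least 1 kb, each gave 1 promoter with H3K4me3 in KO alone. With 18p alone in its place, the chromosome stood at place 9 of 23 for H3R8me2a. No paired analysis was possible because each mark and genotype has 1 library. The causes of these shifts beyond the construction of each alternative were not tested.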
